A study of Mus musculus with 8 samples.

Results

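The enzymes that write, copy, oxidise and remove DNA methylation were followed in bulk RNA-seq of mouse retinas with and without *Mettl3*. They were taken by gene symbol and are 8 of the 54532 genes counted: *Dnmt1*, *Uhrf1*, *Dnmt3a*, *Dnmt3b*, *Tet1*, *Tet2*, *Tet3* and *Tdg*. All 8 had counts enough to be among the 17998 genes tested. The study deleted *Mettl3*, which encodes the catalytic subunit of the complex that writes m6A on RNA, to ask what this mark does in retinal development. The *Mettl3*-CKO samples (n = 4) were retinas of mice carrying Six3-Cre and a floxed *Mettl3* on both alleles, and the controls (n = 4) were retinas of littermates whose alleles the sources used here do not detail. All samples were labelled as postnatal day 7 (p7), whereas the study's methods give day 6 for this experiment. Six3-Cre acts in retinal progenitor cells (RPCs), and the study's staining describes the deletion as efficient in the central retina, so that whole retinas can hold cells that were not deleted.

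Methylation of cytosine in CpG dinucleotides is set by DNMT3A and DNMT3B and copied onto the new DNA strand after replication by DNMT1, which UHRF1 brings to hemimethylated sites. The TET1, TET2 and TET3 dioxygenases oxidise 5-methylcytosine, and the glycosylase TDG excises the most oxidised forms so that base excision repair can put back an unmodified cytosine. In a developing retina the maintenance pair is most used by dividing progenitors, whereas DNMT3A and the TET enzymes are also known from postmitotic neurons.

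Promoter sequence is shown first for *Uhrf1* and *Dnmt3b*, the members with the largest differences between the groups, and for *Dnmt3a*, the paralog of *Dnmt3b* with the same de novo activity. Each sequence is the 250 bases before a RefSeq transcription start (build GRCm38.p6), on the strand of the gene. The capitals mark an 8-letter string of the kind that E2F factors, regulators of S-phase genes, are known to bind. For *Uhrf1* the second start is shown, and the stretch before its first start held no such string.
Uhrf1, chr17:56304063-56304312, plus strand: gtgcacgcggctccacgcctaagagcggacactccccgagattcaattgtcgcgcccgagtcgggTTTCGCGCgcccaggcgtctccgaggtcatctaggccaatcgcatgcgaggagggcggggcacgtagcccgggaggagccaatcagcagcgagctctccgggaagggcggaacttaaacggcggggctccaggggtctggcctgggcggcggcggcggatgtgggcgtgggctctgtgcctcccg
Dnmt3b, chr2:153649199-153649448, plus strand: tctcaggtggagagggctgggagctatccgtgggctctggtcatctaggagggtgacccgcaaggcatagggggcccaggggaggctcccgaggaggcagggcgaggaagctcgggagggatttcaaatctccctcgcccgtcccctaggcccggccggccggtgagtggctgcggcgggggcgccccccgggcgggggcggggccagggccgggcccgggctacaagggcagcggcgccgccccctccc
Dnmt3a, chr12:3806730-3806979, plus strand: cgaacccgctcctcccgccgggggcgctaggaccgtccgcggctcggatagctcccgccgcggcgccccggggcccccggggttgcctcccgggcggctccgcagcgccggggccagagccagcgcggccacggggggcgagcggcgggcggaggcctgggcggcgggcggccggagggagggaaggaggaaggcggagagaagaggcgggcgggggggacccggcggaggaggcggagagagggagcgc
These stretches hold 30, 21 and 38 CpG dinucleotides, in that order. No exon of the gene itself overlaps any of them in the annotation used, and the antisense gene *Dnmt3bos* spans the *Dnmt3b* stretch. For *Dnmt3a* the first of 3 starts is shown, and the stretches before its other starts hold 40 and 15 CpGs. Which start was used in these retinas was not measured.

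RefSeq windows of 300 bases, from 250 before to 50 after a start, were at hand for all 8 members (13 windows). They held between 2 CpGs (the first of 3 *Dnmt1* windows) and 57 CpGs (*Tet2*), against a median of 7 over all 32851 windows. The letters TTTCCCGC, TTTGGCGC, TTTGCCGC and TTTCGCGC were searched on both strands, where one stretch can match more than one string. One or more of them stood in 2.26% of all windows, in 4.4% of the 11988 tested genes with a window, and in 8 of 21 S-phase genes. Among the members, 2 of 8 held one. *Uhrf1* had TTTCGCGC at 185 bases before the second of its starts, and *Dnmt1* had its reverse complement GCGCGAAA at 219 bases before the last of its starts and TTTGGCGC at 34 bases after it. A match describes letters in a window and is not a binding site.

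Total counts ran from 16227095 to 20281517 per library. The members had between 217 and 8618 counts in a library, far above 3 counts, which are 0.148 to 0.185 CPM of the library totals. All other CPM here are library-scaled counts after TMM normalisation. Groups were compared by the quasi-likelihood test of edgeR, adjusted over all tested genes by the Benjamini-Hochberg method, and a gene was called at an adjusted p under 0.05. The labels do not say whether the libraries came from separate animals, so that p-values measure the spread between these samples. The targeted gene *Mettl3* averaged 24.1 ± 3.97 CPM in *Mettl3*-CKO and 31.2 ± 2.24 CPM in control retinas (SD, n = 4 each). The log2 fold change was -0.38 (SE 0.12, edgeR adjusted p = 0.0602), and the ranges overlapped through *Mettl3*-CKO replicate 2, without which it was -0.49 (edgeR adjusted p = 0.0185). DESeq2 and limma voom called it lower (adjusted p = 0.032 and 0.0139). Its counts cover the whole gene, deleted exons or not, and it overlaps the abundant gene *Tox4*.

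Markers of several cell types differed between the groups. Of 7 tested Müller glia markers, 1 was called higher and 1 lower, also in each fit that left out a library. In *Mettl3*-CKO against control retinas, *Rlbp1* (71.5 to 122 against 191 to 342 CPM) and *Glul* (485 to 584 against 372 to 417 CPM) did not overlap. Summed CPM of 10 progenitor markers were 2590 to 3490 in *Mettl3*-CKO and 1990 to 2680 in control retinas, with 3 of 10 called higher (1 without *Mettl3*-CKO replicate 1 and 5 without *Mettl3*-CKO replicate 4). Only 7 of 10 had a higher estimate. The cyclin gene *Ccnd1* gave 1000 to 1530 against 748 to 1100 CPM of that sum. *Pax6*, also a marker of amacrine cells, gave 669 to 836 against 564 to 709 CPM. The 11 rod markers summed to 1350 to 2470 against 2600 to 3900 (7 of 11 called lower, or 2 to 4 when one of *Mettl3*-CKO replicates 1, 2 and 3 and control replicates 2 and 4 was left out). The 11 vessel markers summed to 551 to 650 against 587 to 675 CPM, with 8 called lower (3 or 4 when one of *Mettl3*-CKO replicates 1, 2 and 3 was left out). *Kdr* alone gave 524 to 616 against 481 to 624 CPM of that sum. The median log2 fold change of the vessel list was -1.31, and *Cdh5* (0.812 to 2.05 against 2.94 to 11.4 CPM) and *Rgs5* (4.52 to 8.87 against 11.1 to 53.1 CPM) did not overlap. Pigment epithelium markers summed to 42.9 to 63.2 against 72.8 to 99.2 CPM (4 of 7 tested called lower, 1 without *Mettl3*-CKO replicate 1 and 2 without *Mettl3*-CKO replicate 4 or control replicate 2). Erythrocyte markers summed to 4.35 to 7.23 against 14.0 to 26.5 CPM (2 of 3 tested called lower, 4 without *Mettl3*-CKO replicate 2), and astrocyte markers to 17.9 to 32.3 against 30.3 to 80.1 CPM (1 of 4 called lower, 0 without *Mettl3*-CKO replicate 2, 3 or 4). Lens markers summed to 5280 CPM in control replicate 4 and 98.1 CPM in control replicate 1, against 7.13 to 27.6 CPM in the other libraries. Without control replicate 4 no member was called by edgeR, and *Uhrf1*, *Dnmt3b* and *Tdg* had log2 fold changes of 0.45, 0.44 and -0.17 (adjusted p = 0.0772, 0.142 and 0.303). Retinal identity was clear from *Nrl* (364 to 562 against 643 to 962 CPM), a rod transcription factor. The bipolar markers summed to 1040 to 1110 against 1080 to 1410 CPM (1 of 7 tested called lower, 0 without *Mettl3*-CKO replicate 1, 2 or 3 or control replicate 3 or 4). *Otx2*, which the study also used for precursors of bipolar cells and rods, gave 907 to 975 against 944 to 1270 CPM of that sum. *Prkca* (41.5 to 55.8 against 55.5 to 72.0 CPM) and *Cabp5* (7.07 to 12.5 against 6.55 to 8.24 CPM) were present, whereas *Grm6* was at 0 to 0.276 CPM over all libraries. In whole retina, fewer cells of a type and less RNA per cell cannot be told apart, and the part of composition in the results below was not tested.

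No member was called in either direction at this threshold (0 of 8 by edgeR), where 10.5% of all tested genes were called, 6.49% higher and 4.05% lower in *Mettl3*-CKO retinas. At an unadjusted p under 0.05 there were 3 members, *Uhrf1*, *Dnmt3b* and *Tdg*, against 24.6% of all genes. DESeq2 called 2 members higher (*Uhrf1* and *Dnmt3b*, background 8.38% of genes) and 0 lower (5.79% of genes), limma voom called *Uhrf1* higher (11.9% of genes) and *Tdg* lower (8.71% of genes), and edgeR without the filter called *Uhrf1* and *Dnmt3b* higher (3.86% of genes). The median log2 fold change of the members was -0.05, against -0.01 for all tested genes, and the median of its absolute value was 0.09 against 0.18. The groups did not overlap for 2 of 8 members, against 17.4% of all tested genes. These were *Uhrf1*, higher in *Mettl3*-CKO retinas as in 9.77% of genes, and *Tdg*, lower as in 7.58% of genes.

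**Figure D1:**
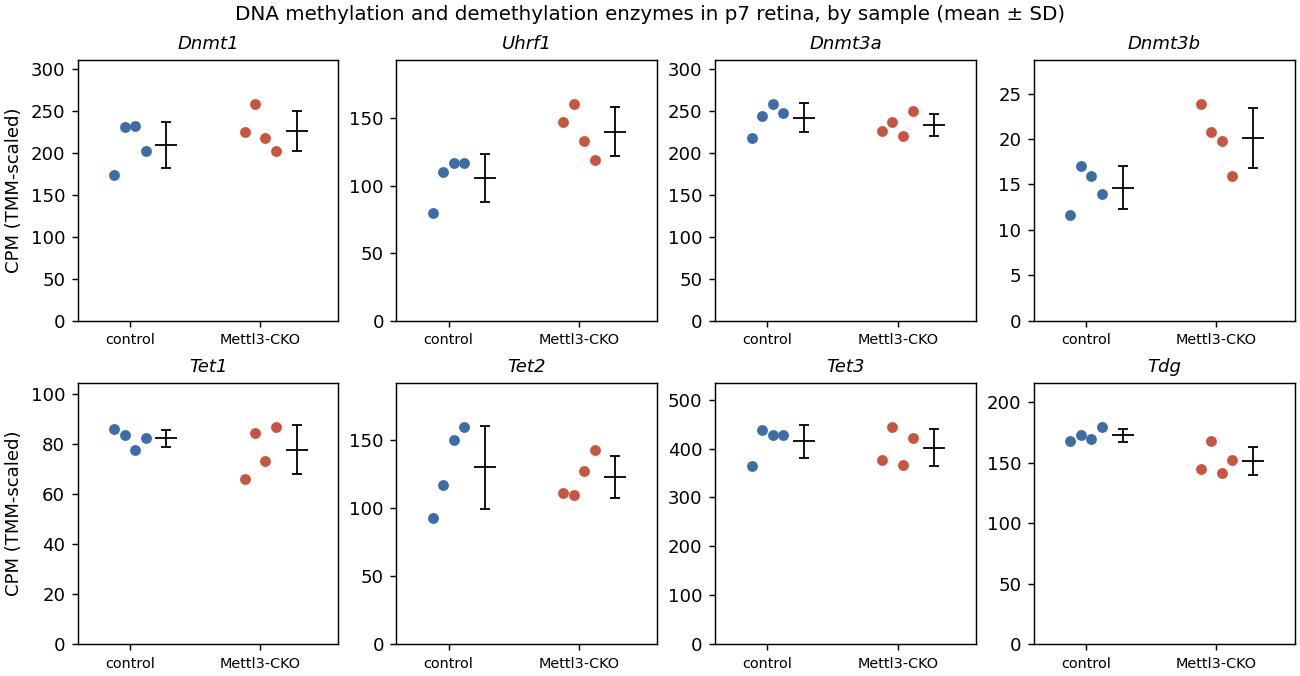
TMM-scaled CPM of the 8 enzymes in each p7 retina, with control samples in blue, *Mettl3*-CKO samples in red and bars for the mean ± SD (n = 4). All axes start at 0. *Uhrf1* lay higher in every *Mettl3*-CKO sample (119 to 161 CPM) than in every control (79.9 to 117 CPM), and *Tet2* spread widely among the controls (92.9 to 160 CPM).

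Among the maintenance genes, *Uhrf1* (ENSMUSG00000001228, chromosome 17 from 56303321 to 56323486, plus strand, GRCm38) encodes the reader of hemimethylated CpG that recruits DNMT1. It was at 147, 161, 133 and 119 CPM in the 4 *Mettl3*-CKO samples (replicates 1 to 4) and at 79.9, 110, 117 and 117 CPM in control replicates 1 to 4. Every *Mettl3*-CKO sample lay above every control, although replicate 4 exceeded the highest control by little and control replicate 1 lay well below the other controls. The means were 140 ± 17.9 and 106 ± 17.8 CPM (SD, n = 4 each), a 1.32-fold ratio. The log2 fold change was 0.40 (SE 0.13, 95% interval 0.12 to 0.68, unadjusted p = 0.00853, adjusted p = 0.0666 by edgeR). It was called with DESeq2 (0.40, adjusted p = 0.0266), with limma voom (0.27, adjusted p = 0.0448) and in edgeR without the filter (0.41, adjusted p = 0.0131), and when control replicate 1 was left out (0.29, edgeR adjusted p = 0.0456). Over all settings with 8 samples its adjusted p lay between 0.0131 and 0.0847, and over the 8 fits that left out a library between 0.0456 and 0.196 (edgeR).

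*Dnmt1* (ENSMUSG00000004099, chromosome 9 from 20907209 to 20959888, minus strand), the maintenance methyltransferase itself, was at 225, 259, 218 and 203 CPM in the 4 *Mettl3*-CKO samples (replicates 1 to 4) and at 174, 231, 232 and 202 CPM in the controls. The ranges overlapped almost throughout, and only control replicate 1 lay below the *Mettl3*-CKO group by a clear margin. The means were 226 ± 23.9 and 210 ± 27.6 CPM (SD, n = 4 each), with a log2 fold change of 0.11 (SE 0.11, 95% interval -0.13 to 0.34, edgeR adjusted p = 0.602). The interval leaves out a rise as large as the 0.40 estimated for *Uhrf1*, its partner, but the difference between the genes was not tested in this fit. limma voom put the estimate at -0.01 (adjusted p = 0.967).

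The de novo methyltransferases differed in level and in direction of the estimate. *Dnmt3b* (ENSMUSG00000027478, chromosome 2 from 153649450 to 153687730, plus strand), best known from early embryos and dividing cells, was at 23.9, 20.8, 19.8 and 15.9 CPM in the 4 *Mettl3*-CKO samples (replicates 1 to 4) and at 11.6, 17.0, 15.9 and 14.0 CPM in the controls. Of the *Mettl3*-CKO samples, 3 exceeded every control, and replicate 4 fell within the control range. The means were 20.1 ± 3.33 and 14.6 ± 2.37 CPM (SD, n = 4 each), a 1.37-fold ratio and the largest fold among the 8 members. The log2 fold change was 0.46 (SE 0.15, 95% interval 0.13 to 0.78, unadjusted p = 0.00922, adjusted p = 0.0697 by edgeR). DESeq2 (0.46, adjusted p = 0.0335), edgeR without the filter (0.46, adjusted p = 0.0282) and the fit without *Mettl3*-CKO replicate 4 (0.56, adjusted p = 0.038) called it, and limma voom did not (0.32, adjusted p = 0.0935). Without a library its adjusted p by edgeR ran from 0.038 to 0.234.

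*Dnmt3a* (ENSMUSG00000020661, chromosome 12 from 3806007 to 3914443, plus strand), the de novo enzyme of postmitotic neurons, was at 226, 237, 220 and 250 CPM in the 4 *Mettl3*-CKO samples (replicates 1 to 4) and at 218, 244, 259 and 248 CPM in the controls. The groups shared nearly the whole of their range. The means were 233 ± 13.2 and 242 ± 17.4 CPM (SD, n = 4 each), and the log2 fold change was -0.05 (SE 0.08, 95% interval -0.23 to 0.12, edgeR adjusted p = 0.739). The intervals of *Dnmt3a* and *Dnmt3b* did not meet, which is given as a description and was not tested as a difference.

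The dioxygenases gave log2 fold changes between -0.08 and -0.04. *Tet1* (chromosome 10 from 62804570 to 62908996, minus strand), whose protein carries a CXXC domain that binds unmethylated CpG, was at 66.1, 84.5, 73.5 and 87.1 CPM in the 4 *Mettl3*-CKO samples (replicates 1 to 4) and at 86.0, 83.6, 77.8 and 82.4 CPM in the controls. *Mettl3*-CKO replicates 1 and 3 lay below all controls and replicate 4 above them. Its log2 fold change was -0.08 (SE 0.10, 95% interval -0.30 to 0.13, edgeR adjusted p = 0.663).

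*Tet2* (chromosome 3 from 133463679 to 133545139, minus strand), whose protein lacks a CXXC domain of its own, was at 111, 110, 127 and 143 CPM in the 4 *Mettl3*-CKO samples (replicates 1 to 4) and at 92.9, 117, 150 and 160 CPM in the controls. The controls enclosed the whole *Mettl3*-CKO range, and their coefficient of variation of 23.8% was the highest of any member in a group. The log2 fold change was -0.08 (SE 0.15, 95% interval -0.41 to 0.25, edgeR adjusted p = 0.806), and leaving out control replicate 4 turned it to 0.04.

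*Tet3* (chromosome 6 from 83362373 to 83459084, minus strand), the most counted member, was at 376, 445, 367 and 421 CPM in the 4 *Mettl3*-CKO samples (replicates 1 to 4) and at 365, 438, 428 and 428 CPM in the controls. Low and high samples occurred in both groups. Its log2 fold change was -0.04 (SE 0.09, 95% interval -0.25 to 0.16, edgeR adjusted p = 0.826), and without *Mettl3*-CKO replicate 3 it was 0.00.

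*Tdg* (ENSMUSG00000034674, chromosome 10 from 82629828 to 82650799, plus strand), which removes the oxidised bases, was at 145, 168, 142 and 152 CPM in the 4 *Mettl3*-CKO samples (replicates 1 to 4) and at 168, 173, 170 and 180 CPM in the controls. Every *Mettl3*-CKO sample lay below every control, but *Mettl3*-CKO replicate 2 and control replicate 1 were so close that both round to 168 CPM. The controls were tight, with a coefficient of variation of 3.03%, the lowest of any member in a group. The means were 152 ± 11.4 and 173 ± 5.23 CPM (SD, n = 4 each). edgeR gave a log2 fold change of -0.19 (SE 0.08, 95% interval -0.36 to -0.01, unadjusted p = 0.0352, adjusted p = 0.165). DESeq2 did not call it (adjusted p = 0.12), limma voom did (-0.21, adjusted p = 0.038), and none of the 8 fits that left out a library did (edgeR adjusted p from 0.0811 to 0.371).

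**Figure D2:**
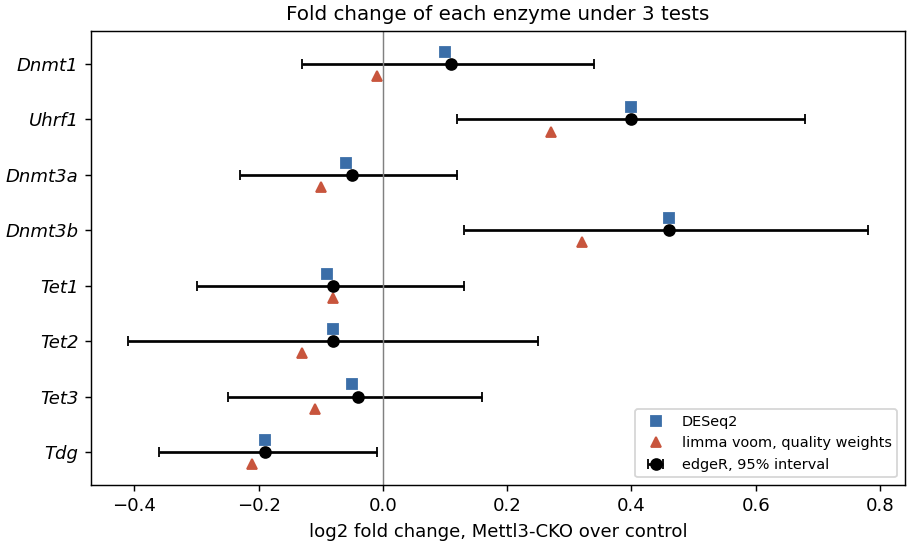
log2 fold changes (*Mettl3*-CKO over control, edgeR) of the 8 enzymes with their 95% intervals, beside the estimates of DESeq2 and limma voom. The intervals of *Uhrf1* (0.12 to 0.68) and *Dnmt3b* (0.13 to 0.78) lie above 0, that of *Tdg* (-0.36 to -0.01) lies below it, and the other 5 include 0.

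Where genes overlap, reads may be shared, and whether strand was used in counting is not given in the sources used here. *Uhrf1* overlaps no other gene in the deposited coordinates. The neighbours of the others had low counts, the most being *B230319C09Rik* at *Tet3* and *Glt8d2* at *Tdg*, with means of 33.6 and 19 counts in a library. The antisense genes *Dnmt3aos* and *Dnmt3bos* had means of 7.12 and 2.0 counts.

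Levels were compared between genes as FPKM, counts scaled by deposited gene length and by the library total. In controls the order was *Tdg* (32.0 ± 1.44 FPKM), *Dnmt1* (28.4 ± 4.1), *Uhrf1* (24.8 ± 4.51), *Tet3* (24.7 ± 2.41), *Dnmt3a* (14.5 ± 1.25), *Tet2* (7.69 ± 1.91), *Tet1* (5.3 ± 0.191) and *Dnmt3b* (2.86 ± 0.5 FPKM, SD, n = 4 each). The first 4 overlapped with their neighbours in this order, as did *Tet2* with *Tet1*, whereas *Dnmt3a* stood apart from the genes on either side and *Dnmt3b* lay below all others in every control. In *Mettl3*-CKO retinas the leading places were those of *Uhrf1* (33.0 ± 4.14 FPKM), *Dnmt1* (30.7 ± 3.15 FPKM) and *Tdg* (28.3 ± 2.13 FPKM), with overlapping ranges. *Tet3* (24.1 ± 2.26), *Dnmt3a* (14.0 ± 0.873), *Tet2* (7.3 ± 0.949), *Tet1* (5.04 ± 0.64) and *Dnmt3b* (3.94 ± 0.653 FPKM) followed in the same order as in controls, and there *Tet1* and *Dnmt3b* overlapped.

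The share of each enzyme within its family was taken from summed FPKM in each library. Among the methyltransferases *Dnmt1* held 60.3% to 65.7% in *Mettl3*-CKO and 60.6% to 63.5% in control retinas, and *Dnmt3a* held 26.7% to 32.9% against 29.7% to 33.6%. These shares rest on deposited lengths of 7377 bases for *Dnmt1* and 16642 bases for *Dnmt3a*. Before scaling by length *Dnmt3a* had the higher mean, at 242 against 210 CPM in control and 233 against 226 CPM in *Mettl3*-CKO retinas. *Dnmt3b* held 9.63%, 7.62%, 8.3% and 6.81% in the *Mettl3*-CKO samples and 5.83%, 6.75%, 6.2% and 6.09% in the controls. Its mean share was thus 8.09% ± 1.19 against 6.22% ± 0.388 (SD, n = 4 each), with no overlap, a description that follows from the same counts as its fold change. *Tet3* made up most of the TET transcripts in both groups (64.1% to 68.9% and 63.4% to 68.0%), with *Tet2* next (16.9% to 22% and 16.7% to 23.5%) and *Tet1* last (12.8% to 14.3% and 12.7% to 16.9%). The shares of each TET gene overlapped between the groups.

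**Figure D3:**
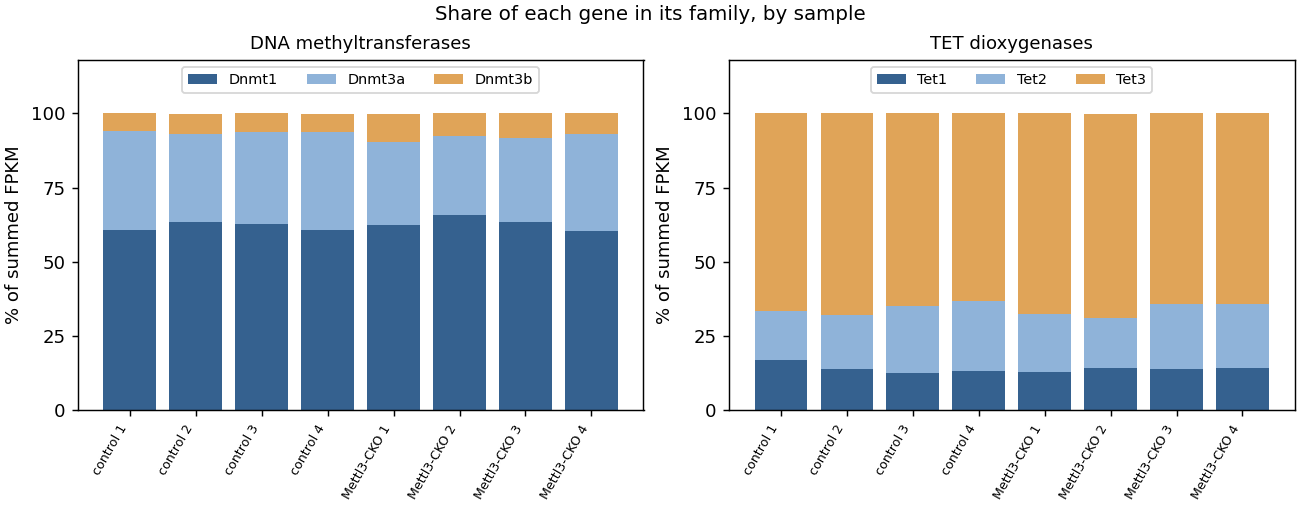
Percent of summed FPKM held by each methyltransferase and each TET gene in every library. *Dnmt3b* took 6.81% to 9.63% of the methyltransferase FPKM in *Mettl3*-CKO and 5.83% to 6.75% in control retinas, and *Tet3* took more than the other TET genes in every library.

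Because DNMT1 and UHRF1 act on newly replicated DNA, each gene was also read relative to 25 S-phase genes, as its log2 CPM minus their mean in the same library. Which cells the transcripts came from was not measured. These S-phase genes had a median log2 fold change of 0.41 (range 0.09 to 0.93), and 14 of 25 were called higher by edgeR, against 6.49% of all tested genes. The S-phase count fell to 0 without *Mettl3*-CKO replicate 1 and was 18 without *Mettl3*-CKO replicate 4. It was between 3 and 9 without *Mettl3*-CKO replicates 2 or 3 or control replicates 2, 3 or 4. The relative level of *Dnmt1* was 1.90, 2.08, 1.86 and 2.05 in *Mettl3*-CKO samples 1 to 4 and 2.26, 2.34, 2.35 and 2.21 in the controls, on the log2 scale. All *Mettl3*-CKO values lay below all control values, the reverse of its slightly higher CPM. The means were 1.97 ± 0.11 and 2.29 ± 0.07 (SD, n = 4 each), a difference of -0.32 (p = 0.0286 in a two-sided exact permutation test, which is the lowest value possible with 4 against 4, and 0.0572 adjusted over the 2 genes). *Dnmt1* thus differed by less between the groups than the S-phase genes did in these libraries, although the adjusted p does not pass 0.05. The S-phase mean itself did not overlap between the groups (5.62 to 5.94 in *Mettl3*-CKO and 5.19 to 5.51 in control retinas). A gene with similar levels in both groups could give the same separation once that mean is subtracted. The list was also chosen with earlier results of these data known. The p-value is therefore not particular to *Dnmt1* and does not test it apart from the list.

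The relative level of *Uhrf1* was 1.30, 1.40, 1.15 and 1.28 in *Mettl3*-CKO samples 1 to 4 and 1.13, 1.27, 1.37 and 1.42 in the controls. The groups overlapped throughout, so that the higher CPM of *Uhrf1* was of the size of the S-phase difference. The difference was -0.02 (two-sided exact permutation test, p = 0.914) and turned to 0.02 against 20 mitotic genes (exact permutation test, p = 0.8).

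**Figure D4:**
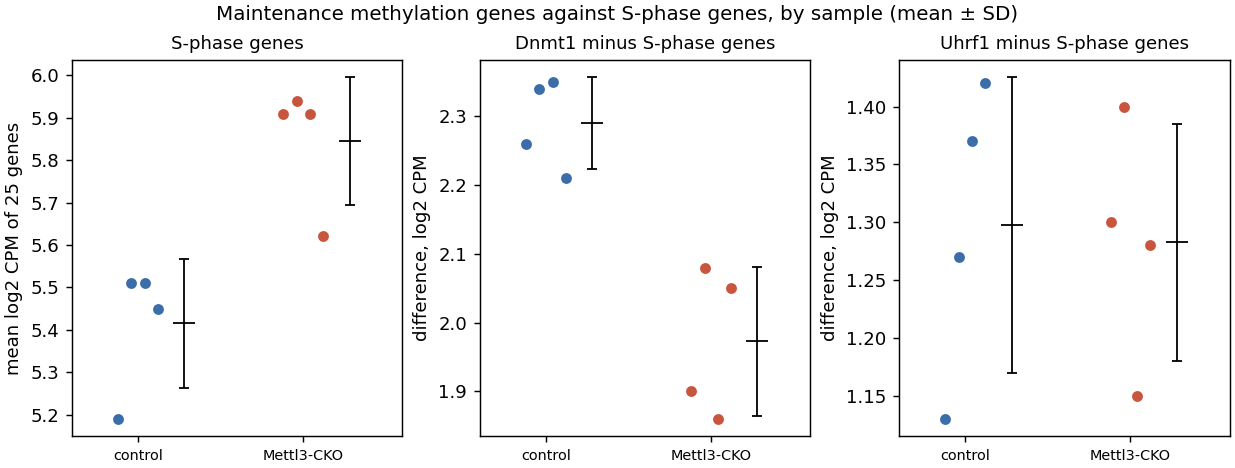
Mean log2 CPM of 25 S-phase genes in each library (left), and log2 CPM of *Dnmt1* and *Uhrf1* minus that mean (middle and right), with bars for the mean ± SD (n = 4) and axes that do not start at 0. The S-phase mean lies at 5.62 to 5.94 in *Mettl3*-CKO and 5.19 to 5.51 in control retinas, *Dnmt1* lies at 1.86 to 2.08 in *Mettl3*-CKO and 2.21 to 2.35 in control retinas, and the values of *Uhrf1* overlap.

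The genes around these enzymes were read in 6 further lists, each beside the share of all genes called higher (6.49%) or lower (4.05%). Of 12 genes linked to the setting or upkeep of DNA methylation, 9 were tested, 1 rose and 0 fell, with a median log2 fold change of 0.03. The riser was *Cdca7*, which with HELLS forms a nucleosome remodeller needed for methylation of heterochromatin. It was at 65.3, 64.1, 61.8 and 52.2 CPM in the 4 *Mettl3*-CKO samples (replicates 1 to 4) and at 26.2, 37.5, 41.1 and 38.6 CPM in the controls, with no overlap (log2 fold change 0.76, SE 0.13, edgeR adjusted p = 0.00415). It was called in all 8 fits that left out a library, and the list had 2 higher calls without control replicate 1 or control replicate 4, by DESeq2, by limma voom and without the filter. Of 10 genes of the MBD and ZBTB families, which include readers of methylated CpG, 0 were called by edgeR (median log2 fold change 0.10). Other settings called some of them, with 1 higher by DESeq2, 2 higher by edgeR without the filter, and 1 higher by edgeR with library totals, with a minimum of 1 CPM or with a replicate block. limma voom, and edgeR without control replicate 1, called 1 higher and 1 lower.

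Of 18 genes of excision repair or known to work with the TET enzymes, 17 were tested, 1 rose and 1 fell (median 0.07). *Apex1*, the endonuclease that acts after a glycosylase such as TDG, rose from 34.6 ± 4.11 to 59.9 ± 9.42 CPM (SD, n = 4 each, log2 fold change 0.79, SE 0.12, edgeR adjusted p = 0.00204). *Gadd45g*, a stress-response gene linked to active demethylation, was at 91.0 ± 4.06 against 119 ± 16.3 CPM in controls (SD, n = 4 each, log2 fold change -0.38, SE 0.10, edgeR adjusted p = 0.0329). Of the 8 fits that left out a library, those without control replicate 1 or control replicate 4 called it, and in the other 6 its adjusted p was 0.0593 to 0.124 (edgeR). It was also not called with a replicate block (edgeR adjusted p = 0.0512), and the other settings with all samples called it (adjusted p from 0.00758). The list had 3 higher calls by DESeq2, 4 higher and 2 lower by limma voom, 3 higher and 0 lower with a replicate block, 2 higher without the filter or without control replicate 3, and 4 higher without control replicate 1.

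Of 15 genes that supply the methyl donor or 2-oxoglutarate, the substrates of the DNMT and TET enzymes, 2 rose and 0 fell (median 0.06). *Shmt1*, a serine hydroxymethyltransferase of the folate cycle, was at 26.2 ± 2.96 against 18.3 ± 1.06 CPM (SD, n = 4 each, log2 fold change 0.52, SE 0.11, edgeR adjusted p = 0.0102). *Idh2*, the mitochondrial isocitrate dehydrogenase that makes 2-oxoglutarate, was at 113 ± 9.75 against 92.3 ± 4.94 CPM (SD, n = 4 each, log2 fold change 0.30, SE 0.09, edgeR adjusted p = 0.0489). *Idh2* lost its call in 6 of the 8 fits that left out a library, all but those without *Mettl3*-CKO replicate 2 or control replicate 1 (edgeR adjusted p up to 0.149), and also with RLE scaling (0.0509) and without the filter (0.0752). The list had 3 higher calls by DESeq2 and with a replicate block, 4 higher and 1 lower by limma voom, and 1 higher with RLE scaling or without the filter. It had 4 higher calls without control replicate 1 and, apart from the fit without *Mettl3*-CKO replicate 2, 1 in each other such fit.

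Genes whose silence or allelic use rests on DNA methylation were read as well. Of 18 germline genes known to be silenced by promoter methylation, 3 passed the filter (*Ddx4*, *Sycp3* and *Brdt*) and 0 were called, by edgeR, DESeq2 or limma voom, with log2 fold changes of -0.05, 0.37 and -0.17. The 18 genes together summed to 12.1 to 14.8 CPM in *Mettl3*-CKO and 13.5 to 16.9 CPM in control retinas, ranges that overlap. *Brdt* alone gave 8.18 to 10.7 against 9.79 to 12.4 CPM of that sum, so that the sum tells little about the silent genes. Of 22 imprinted genes, 21 were tested, 3 rose and 3 fell, with a median log2 fold change of -0.09. *Magel2* rose from 5.44 ± 0.405 to 11.9 ± 3.74 CPM (log2 fold change 1.12, SE 0.20, edgeR adjusted p = 0.00468) and *Zdbf2* from 42.3 ± 7.44 to 63.9 ± 5.7 CPM (0.60, SE 0.12, edgeR adjusted p = 0.00984, or 0.052 without *Mettl3*-CKO replicate 1). *Dlk1*, a Notch-like ligand, fell from 4.57 ± 1.26 to 1.42 ± 0.736 CPM (-1.67, SE 0.32, edgeR adjusted p = 0.00758). *Cdkn1c*, an inhibitor of cyclin-dependent kinases, fell from 37.2 ± 1.82 to 28.4 ± 2.69 CPM (-0.39, SE 0.09, edgeR adjusted p = 0.0197), but was not called in 4 of the fits that left out a library, those without *Mettl3*-CKO replicates 1 or 3 or control replicates 3 or 4 (edgeR adjusted p = 0.0517 to 0.076). Without *Mettl3*-CKO replicate 1 the list had 1 call in each direction, and without control replicate 1 it had 4 higher and 5 lower. DESeq2 called 3 higher and 5 lower, and limma voom 4 higher and 6 lower. Methylation of DNA was not measured, and RNA counts do not tell the parental alleles apart.

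**Figure D5:**
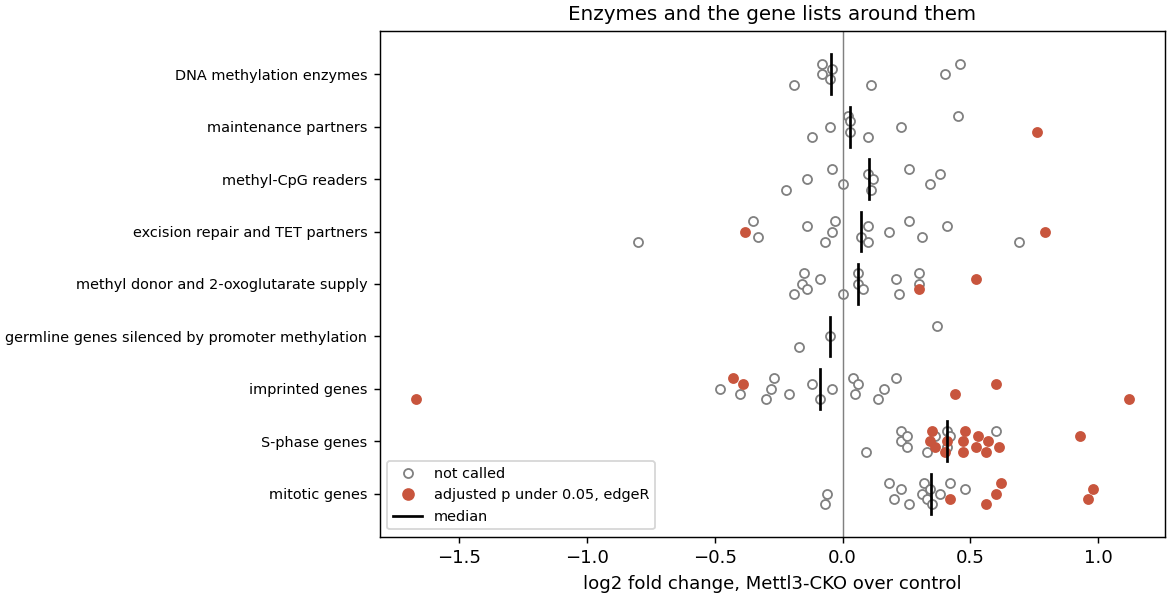
edgeR log2 fold changes (*Mettl3*-CKO over control) of the tested genes of each list, one point per gene, with called genes as filled red circles, other genes as open circles and a black line at the median of each list. The 25 S-phase genes all lie above 0 (0.09 to 0.93), whereas the 8 enzymes lie between -0.19 and 0.46 and the imprinted genes spread from -1.67 to 1.12.

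Calls in the cell cycle lists were all higher in *Mettl3*-CKO retinas, where 6.49% of all tested genes were called higher. Of the members, 3 had estimates in this direction and 5 in the other. Of the S-phase genes, *Rrm2* of ribonucleotide reductase had a log2 fold change of 0.52 (edgeR adjusted p = 0.0125), *Rpa2*, which binds single-stranded DNA, 0.48 (0.0119), the helicase subunit *Mcm5* 0.47 (0.0163) and the flap endonuclease *Fen1* 0.93 (0.0159). Each lost its call without *Mettl3*-CKO replicate 1 (edgeR adjusted p = 0.0509 to 0.0646), and *Mcm5* also without *Mettl3*-CKO replicate 2 (0.0527). Of 20 mitotic genes, 6 rose and 0 fell (median log2 fold change 0.34), or 4 without *Mettl3*-CKO replicate 1 and 9 without *Mettl3*-CKO replicate 4. *Mki67* rose from 459 ± 46.5 to 905 ± 150 CPM (SD, n = 4 each, 0.98, edgeR adjusted p = 0.000701), and the kinetochore genes *Cenpf* and *Cenpe* and *Birc5* of the chromosomal passenger complex had log2 fold changes of 0.96, 0.60 and 0.62 (edgeR adjusted p = 0.0014, 0.00743 and 0.00559). The part of the cell cycle in the values of the members was not tested, and the relative levels given above do not measure it.

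Across the 8 libraries, the genes whose pattern was most like that of each member were found by the root mean square difference of log2 CPM centred per gene, among 11372 genes with a mean log2 CPM of at least 3. This is a description, and the libraries share the group difference. The nearest genes lie below the median of all genes by selection, and no shared function was tested. *Uhrf1* was nearest to *Esco2* (0.057), a cohesin acetyltransferase of S phase, then *Rcc1* (0.059) and *Dzip1l* (0.065), against a median of 0.33 over all genes. *Dnmt3b* was nearest to *Psrc1* (0.079), *Bcl2l12* (0.086) and the replicative polymerase subunit *Pold1* (0.088), against a median of 0.347. *Dnmt1* was nearest to *Lama1* (0.047), *Zhx3* (0.047) and *Abl1* (0.048), against a median of 0.236.

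For *Dnmt3a* the nearest genes were *Abr* (0.024), *Trim3* (0.026) and *Traf3* (0.028), and for *Tdg* they were *Trappc10* (0.03), *Cul3* (0.031) and *Trim36* (0.031). *Tet1* lay nearest to *Pianp* (0.051), *Kcnma1* (0.053) and *Prune2* (0.054), *Tet2* to *Csnk1g1* (0.055), *Spopl* (0.066) and *Tsc1* (0.071), and *Tet3* to *Hipk1* (0.036), *Atp11a* (0.037) and *Cntrl* (0.038). No gene was among the 3 nearest of more than 1 member.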

How the data were processed

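RNA of 4 *Mettl3*-CKO and 4 control p7 retinas was sequenced after NEBNext Ultra library preparation. The authors' methods describe read filtering, mapping to GRCm38 (Hisat2) and counting per gene (featureCounts). The deposited values are raw counts per gene with a gene length. The annotation release and strand setting are not given in the sources used here. Differential expression was tested in R 4.3.3 with edgeR 4.0.16 (filterByExpr by group, TMM, quasi-likelihood test, Benjamini-Hochberg adjustment over 17998 genes, threshold 0.05). 95% intervals of log2 fold changes used the t quantile at edgeR's degrees of freedom, and the SE was the absolute log2 fold change over the square root of F. DESeq2 1.42.0, limma 3.58.1 (voom with sample quality weights), other scalings and filters, a replicate block and omission of each library were alternatives. log2 CPM used a prior count of 2, and group differences of relative levels were tested by exact permutation. Depth was 16227095 to 20281517 counts, and the biological coefficient of variation was 15%, so that counting error was small for the members. No 2 libraries of a group agreed within sampling noise (chi-square per gene 5.46 to 42.8). The pairs with control replicate 1 gave the largest values (25.8, 38.2 and 42.8). The other control pairs gave 5.46 to 14.0 and the *Mettl3*-CKO pairs 8.64 to 16.6. Promoter windows were taken from RefSeq (GRCm38.p6) by gene symbol. The scripts were tested on simulated data. The members and gene lists were chosen with earlier results of these data known. Genes outside the members were named by rule: *Mettl3*, the called genes of each list (at most the 4 with the smallest adjusted p), and the 3 genes most like each member in pattern. The uncalled germline genes and the cell type markers with values were named outside this rule. Some genes of the lists are not reported here by name.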

Additional observations from a re-analysis of the deposited data

Results flagged for a closer look

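The most extreme sample of each group of 4 was examined by Dixon's ratio for 26 genes (the members, *Mettl3* and the called list genes named above) and for the 2 levels relative to S-phase genes, with a limit that chance exceeds in about 1 in 20 groups. Of 56 groups, 4 exceeded it, where chance gives about 2.8. For *Uhrf1*, control replicate 1 was at 6.32 log2 CPM against 6.79 to 6.88 in the other controls. For *Tet3*, the same library was at 8.51 against 8.74 to 8.77. *Birc5* was at 5.27 in control replicate 1 against 5.53 to 5.58 in the other controls, and at 5.78 in *Mettl3*-CKO replicate 4 against 6.18 to 6.25 in the rest of that group.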

How the results depend on the processing

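For the members, *Mettl3* and the named called genes of the lists (26 genes), the log2 fold change kept its direction and side of the threshold in 351 combinations of gene and setting, lost its call in 25, gained one in 11 and reversed in 3. The reversed values were those of *Dnmt1* with limma voom (-0.01), *Tet2* without control replicate 4 (0.04, range over omitted libraries -0.21 to 0.04) and *Tet3* without *Mettl3*-CKO replicate 3 (0.00, range -0.10 to 0.00). Against 0 members called, DESeq2 and edgeR without the filter called 2 higher, limma voom called 1 higher and 1 lower, and omission of a library gave 0 to 1 higher and 0 lower. Over all genes, 1168 higher and 729 lower became 2142 and 1568 with limma voom and 439 and 147 at an adjusted p under 0.01. Omission of a library gave from 509 higher and 185 lower (without *Mettl3*-CKO replicate 1) up to 1882 higher and 1289 lower (without control replicate 1). The S-phase-relative difference of *Dnmt1* stayed between -0.35 and -0.28 without a library (exact permutation p = 0.0571, the smallest that 3 against 4 allows), and that of *Uhrf1* ran from -0.07 to 0.03 and was 0.02 against mitotic genes. These *Dnmt1* values all subtract the same S-phase genes, so that their steadiness is not particular to *Dnmt1*. The causes of the shifts between settings were not tested.

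The groups share replicate numbers, but same-numbered samples deviated together with correlations of 0.14, 0.41, -0.08 and 0.44, so the numbers were not taken as pairs, and only *Mettl3*-CKO replicates 2 and 4 correlated best with the control of their own number. A replicate block gave 1198 genes higher and 660 lower, called 0 members (edgeR adjusted p of 0.0847 for *Uhrf1*, 0.0842 for *Dnmt3b* and 0.169 for *Tdg*), did not call *Gadd45g* (0.0512), and left *Dnmt1* relative to S-phase genes at -0.32 (exact sign flips, p = 0.125, the smallest that 4 numbers allow). Depth limited none of the members, with at least 217 counts in every library.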
